A study of Arabidopsis thaliana with 4 samples.

Results

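Histone genes of the Arabidopsis root were examined in wild-type Col-0 and in nlp7-1, a mutant in the Col-0 ecotype that affects NLP7 (NIN-LIKE PROTEIN 7), a transcription factor of nitrate signalling. The members were 38 loci for histones H1, H2A, H2B, H3 and H4, canonical and variant. They were chosen by locus name and not by measured values, but with earlier results of these data known. Each genotype had 2 samples, described in the design text as biological replicates of about 60 roots each, hybridised to 4 Affymetrix ATH1 arrays. Whole roots, severed where they meet the hypocotyl, were taken at 5 dai from seedlings kept on MS agar at 22 °C with 16 h of light per day, and neither genotype received a treatment. The mutant is represented by 1 allele, and each sample pools many roots and all their cell types.

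Of the 38 loci, 11 had a probe set naming 1 gene, 13 were covered only by probe sets shared between copies, and 14 had no named probe set in the annotation used here and are not analysed here. The 11 single-gene probe sets and 11 shared ones make 22 histone probe sets, out of 22746 on the array without controls. By class, 8 of 10 H2B loci had a probe set of their own, as did the H1 locus AT1G06760, the centromeric H3 gene HTR12 (AT1G01370) and the H3-like gene AT1G75600. The 5 H3.1 loci shared 5 probe sets, each listed for all 5 genes, and the 8 H4 loci shared 5 probe sets, each listed for all 8 genes. None of the 12 H2A loci had one, which leaves out the canonical H2A genes and the H2A.W, H2A.X and H2A.Z variants.

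Histones package DNA. An octamer of H2A, H2B, H3 and H4 forms the nucleosome core, and H1 binds the linker DNA between cores. Canonical histone genes are transcribed mainly during S phase, when new DNA has to be packaged, so in roots their transcripts are found chiefly in the dividing cells of the meristem. Variants such as CENH3, which marks centromeres, are deposited by other routes.

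Values are MAS5 signals, a brightness per probe set on a linear scale. The arrays had been brought to a common level, with a trimmed mean (2% off each end) of 250.0 on all 4, so every difference below is relative to the rest of the array. A signal of one probe set says nothing about its level against another. In whole roots, fewer cells of a type and less RNA per cell cannot be told apart. Genotypes were compared with limma across the 13648 probe sets kept (mean signal at or above 59.4). No probe set was named for NLP7, so the genotype labels had no check from the mutated gene. Since 2 against 2 samples cannot reach an exact two-sided permutation p below 0.333, the test rests on the spread that limma pools over probe sets, and p-values measure only the spread between these samples.

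Most histone probe sets had slightly higher signals in nlp7-1 roots, and none of the differences passed the test. Of all 22, 18 had a higher mean log2 signal in nlp7-1, while the same held for 49.1% of all probe sets on the array. Their median log2 change was 0.225, or 1.17-fold, beside 0.996-fold over all probe sets. In 16 of the 22 (72.7%) both nlp7-1 samples lay above both wild-type samples, against 20.4% of all probe sets, and in 1, HTR12, both lay below, against 20.0%. These 22 are not 22 independent readings, because all come from the same 4 samples and 11 of them are shared between gene copies. Of the 22, 19 passed the filter on low signals. In 14 of these 19 (73.7%) both nlp7-1 samples lay above both wild-type samples, against 23.2% of kept probe sets. In limma, 0 of the 19 had a Benjamini-Hochberg adjusted p under 0.05, a threshold that 2.27% of kept probe sets passed. At an unadjusted p under 0.05 there were 5 of the 19, all higher in nlp7-1, against 13.2% of kept probe sets in either direction.

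**Figure D1:**
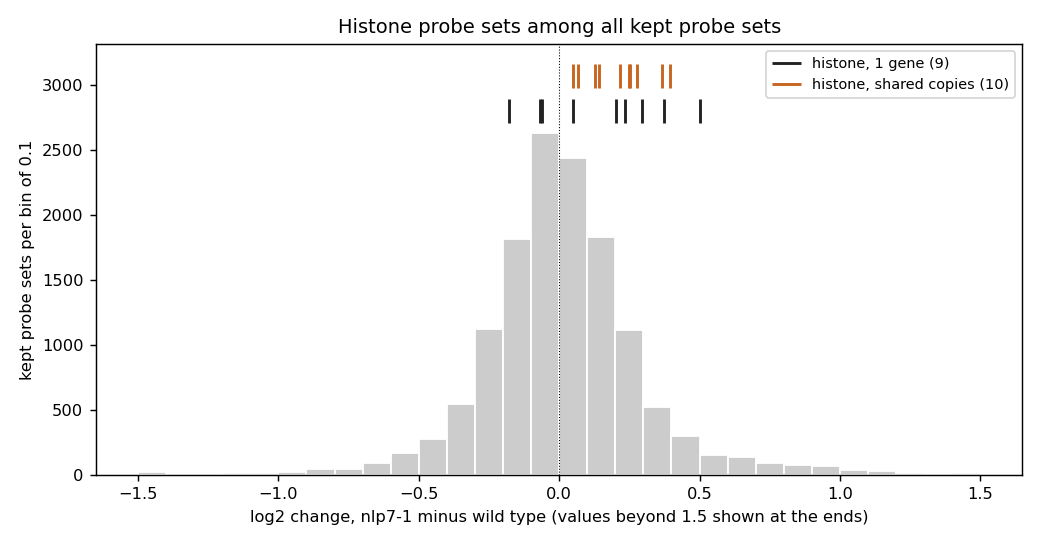
Grey bars count all 13648 kept probe sets by log2 change (nlp7-1 minus wild type, bins of 0.1), and the ticks above mark the 9 single-gene and 10 shared histone probe sets that were kept. The histone ticks run from -0.18 to 0.50, with 16 of 19 to the right of 0.

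H1, the linker histone, was represented by AT1G06760. It read 1715 and 1833 in wild type against 1990 and 2090 in nlp7-1. The genotypes did not overlap, but the log2 change of 0.20 ± 0.10 (SE) did not pass (limma adjusted p = 0.439). The 95% interval of the change ran from 0.98-fold to 1.35-fold.

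Among the H2B genes, whose product pairs with H2A in the nucleosome, HTB1 (AT1G07790) had the largest difference of the members kept. Its signal was 434 and 370 in wild type against 595 and 542 in nlp7-1. Both mutant samples were above both wild-type samples, and the gap between genotypes was wider than that within either of them. The log2 change was 0.50 ± 0.13 (SE), or 1.42-fold, with a 95% interval from 1.14-fold to 1.77-fold. With adjustment over all kept probe sets it did not pass (limma adjusted p = 0.164). It passed when wild type replicate 1 was left out (log2 change 0.62, limma adjusted p = 0.0441), a fit in which the 1 remaining wild-type sample is assumed to vary like the nlp7-1 pair. Over all 14 alternatives its lowest adjusted p was 0.0103, from limma with the replicate number as a block. No label says that such a number marks a batch. With an unmoderated test the adjusted p was 0.524. Leaving out each sample in turn gave log2 changes of HTB1 from 0.39 to 0.62.

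HTB2 (AT5G22880), another H2B gene, had signals of 400 and 331 in wild type against 454 and 440 in nlp7-1. HTB11 (AT3G46030) had 898 and 966 in wild type against 1082 and 1109 in nlp7-1. AT3G09480 was dimmer, with 98.0 and 76.8 in wild type against 119 and 106 in nlp7-1. In these 3 H2B genes the genotypes again did not overlap, with nlp7-1 above. Their log2 changes were 0.30 ± 0.14, 0.23 ± 0.11 and 0.37 ± 0.18 (SE), and none passed (limma adjusted p = 0.423, 0.413 and 0.455). The gap between the wild-type replicates of AT3G09480, 0.35 on the log2 scale, was about as large as its genotype difference. Without wild type replicate 2 the log2 change was 0.16 for HTB2 and 0.20 for AT3G09480.

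The other H2B genes differed little or were dim. HTB4 (AT5G59910) had signals of 2707 and 2159 in wild type against 2440 and 2199 in nlp7-1. AT2G28720 had 393 and 352 in wild type against 400 and 314 in nlp7-1. In both the genotypes overlapped, and the log2 changes were -0.06 ± 0.13 and -0.07 ± 0.16 (SE). AT2G37470 gave nearly the same signal in all 4 samples, 374 and 371 in wild type against 389 and 382 in nlp7-1. Although the genotypes did not overlap there, the log2 change was 0.05 ± 0.11 (SE), with a 95% interval from 0.858-fold to 1.25-fold. AT5G02570 lay below the filter level in every sample, at 14.7 and 18.1 in wild type against 21.2 and 28.4 in nlp7-1, and was not tested. Over all 8 H2B probe sets, 6 were higher in nlp7-1 and in 6 both mutant samples were above both wild-type samples, with a median log2 change of 0.265. Over all probe sets on the array these shares were 49.1% and 20.4%. The 95% intervals of HTB1 and HTB4 overlapped, and whether these H2B genes changed unequally was not tested.

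**Figure D2:**
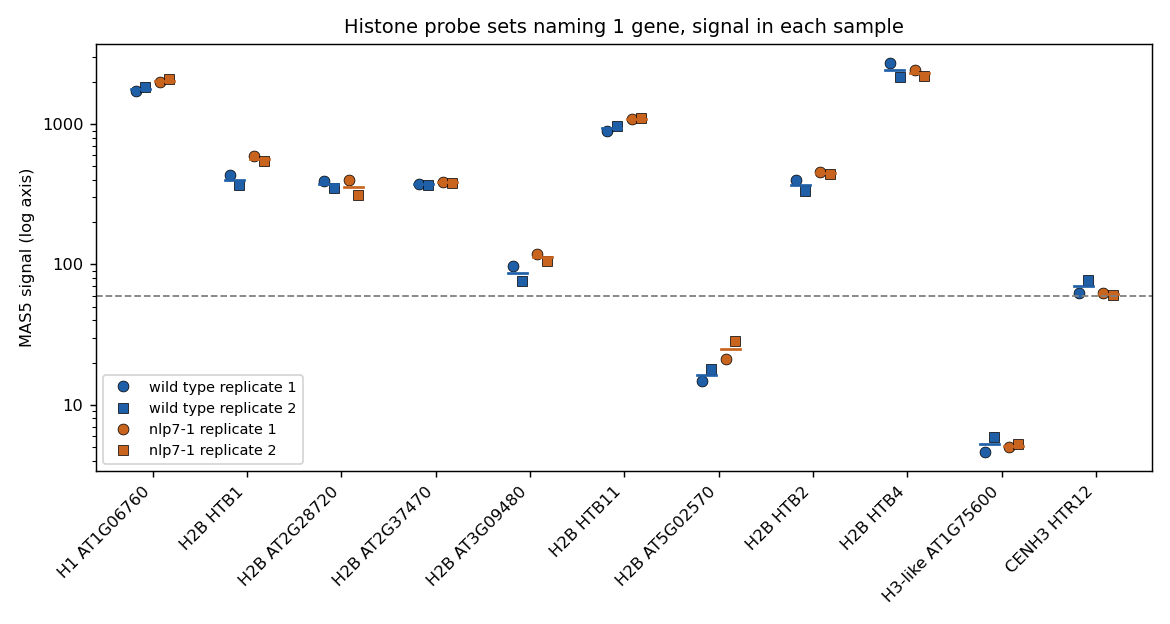
MAS5 signal (log axis) of the 11 histone probe sets naming 1 gene in each of the 4 samples. Short lines are genotype means and the dashed line is the filter level of 59.4. HTB1 shows the widest gap between genotypes among those above the line, and AT5G02570 and AT1G75600 lie below it in all 4 samples.

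For H3, the 5 genes AT1G09200, AT3G27360, AT5G10390, AT5G10400 and AT5G65360 encode H3.1, the form incorporated with DNA replication. Their 5 probe sets cannot be assigned to single genes with the annotation used here. Probe set 257714_at read 427 and 377 in wild type against 540 and 516 in nlp7-1. Probe set 250433_at read 403 and 346 in wild type against 529 and 438 in nlp7-1. These were the widest differences of the H3.1 group, with log2 changes of 0.39 ± 0.12 and 0.37 ± 0.15 (SE) and no overlap between genotypes, and neither passed (limma adjusted p = 0.231 and 0.366). Probe set 247192_at, at 1571 and 1485 against 1686 and 1684, and 250434_at, at 441 and 393 against 468 and 443, had smaller log2 changes of 0.14 and 0.13. The remaining one, 264262_at, overlapped between genotypes, with 1067 and 883 in wild type against 1067 and 968 in nlp7-1. Over the 5, the log2 change therefore ran from 0.07 to 0.39, although GEO's annotation lists the same genes for each.

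H4, the partner of H3, is encoded by 8 loci, AT1G07660, AT1G07820, HIS4 (AT2G28740), AT3G45930, AT3G46320, AT3G53730, AT5G59690 and AT5G59970, which share 5 probe sets. Probe set 251924_at was the most even within genotypes, at 1042 and 1036 in wild type against 1230 and 1239 in nlp7-1. Its log2 change was 0.25 ± 0.10 (SE), or 1.19-fold, with a 95% interval from 1.01-fold to 1.40-fold (limma adjusted p = 0.358). Probe set 247692_s_at read 3284 and 3082 against 3654 and 3736, a log2 change of 0.22 ± 0.08 (SE, limma adjusted p = 0.353). Probe set 252562_s_at, at 798 and 721 against 925 and 883, had a log2 change of 0.25 and no overlap between genotypes. Probe set 266226_at read 486 and 369 in wild type against 538 and 490 in nlp7-1, so its genotypes were barely apart. Its log2 change was 0.28, and 0.08 without wild type replicate 2. In 261408_s_at the genotypes overlapped, with 1265 and 971 in wild type against 1120 and 1174 in nlp7-1. The median log2 change was 0.25 over the 5 H4 probe sets and 0.14 over the 5 H3.1 probe sets.

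**Figure D3:**
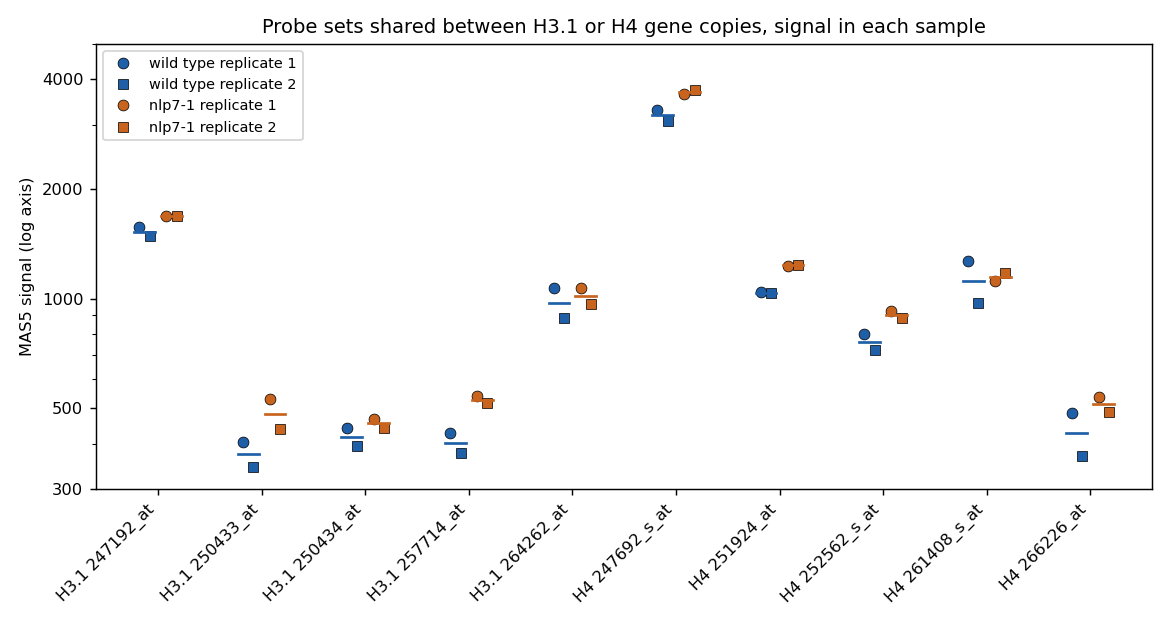
MAS5 signal (log axis) of the 5 probe sets shared between H3.1 genes and the 5 shared between H4 genes, with short lines for genotype means. Both nlp7-1 samples lie above both wild-type samples in 8 of the 10, the exceptions being 264262_at and 261408_s_at, against 23.2% of kept probe sets. Each is listed for all genes of its group, and which of them it detects is not known here, so the 10 cannot be counted as 10 separate genes.

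HTR12, which encodes CENH3, the H3 variant of centromeres, lay just above the filter level. Its signal was 62.3 and 77.2 in wild type against 62.3 and 60.5 in nlp7-1, so replicate 1 read 62.3 in both genotypes and only wild type replicate 2 stood apart. The log2 change was -0.18 ± 0.20 (SE, limma adjusted p = 0.773), with a 95% interval from 0.633-fold to 1.24-fold. AT1G75600, an H3-like gene, had signals from 4.63 to 5.91 in the 4 samples, below the filter level, and was not tested. The probe set it shares with AT1G13370, another H3-like gene, was also below that level, at 10.5 and 1.12 in wild type against 19.3 and 24.1 in nlp7-1.

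Over the 9 single-gene probe sets that were tested, the upper ends of the 95% intervals ran from 1.2-fold to 1.77-fold and the lower ends from 0.633-fold to 1.14-fold. For the 10 shared ones the upper ends ran from 1.29-fold to 1.65-fold. A missed threshold does not show that the genotypes were alike: 5 of these 19 unadjusted intervals lay wholly above 0, and the other 14 included both a rise and a decrease.

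**Figure D4:**
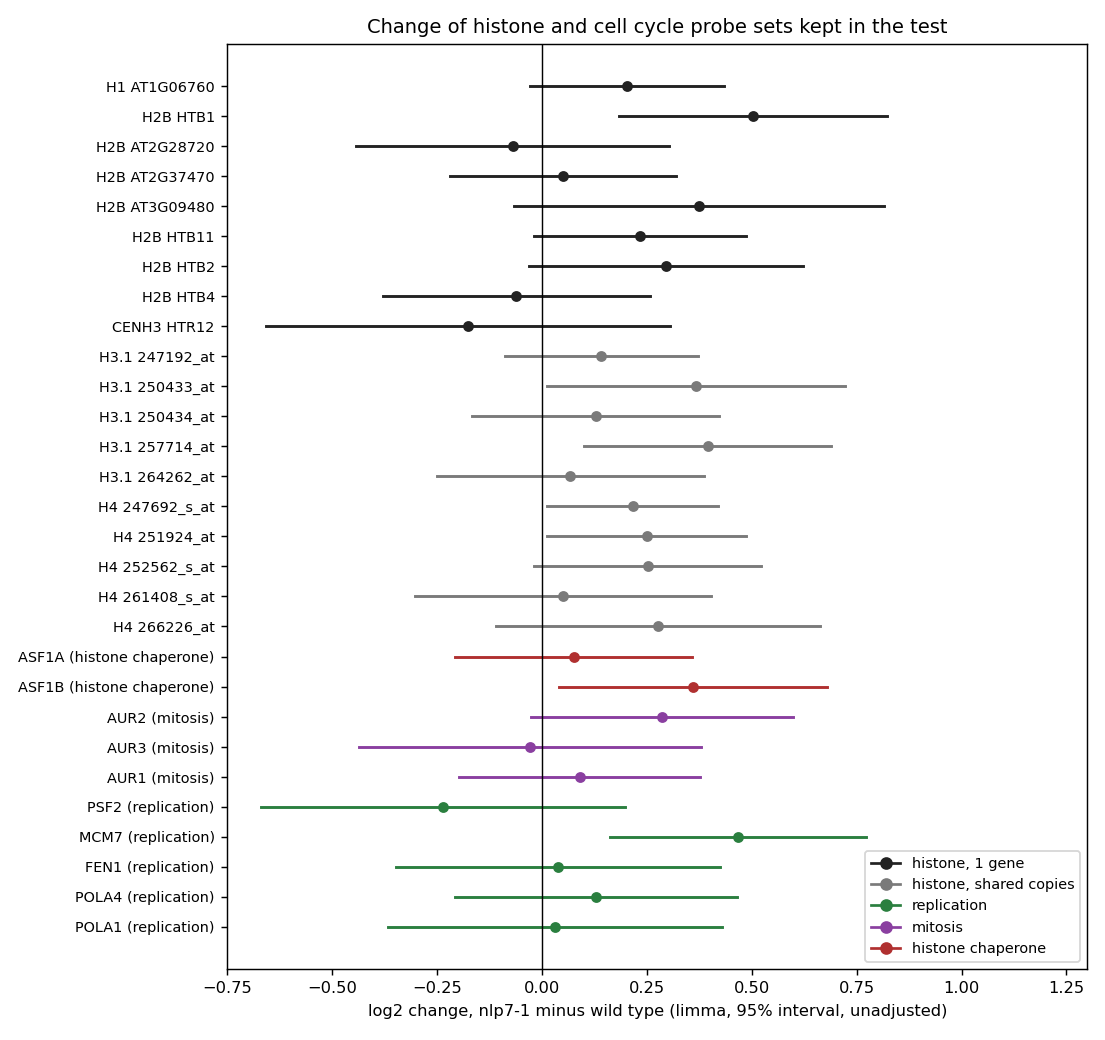
Log2 change (nlp7-1 minus wild type) with its unadjusted 95% interval from limma for the 19 histone probe sets kept and for the measured genes of replication, mitosis and histone chaperones. The interval lies above 0 for HTB1, for 4 shared histone probe sets, for MCM7 and for ASF1B, and 0 of the probe sets shown passed after adjustment.

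The wild-type replicates also differed from each other in the histone probe sets. Wild type replicate 2 was lower than wild type replicate 1 in all 11 shared probe sets, with a median log2 difference of -0.18. Of the 11 single-gene ones it was lower in 6 (54.5%), with a median of -0.01. Among the 9 single-gene ones that were kept it was lower in 6, with a median of -0.16. AT5G02570 and AT1G75600, below the filter level, were higher in wild type replicate 2 (by 0.30 and 0.35). Wild type replicate 2 was lower in 53.2% of all probe sets on the array and in 51.3% of those kept. In nlp7-1, replicate 2 was lower than replicate 1 in 14 of the 22 (63.6%), against 48.2% of all, with a median difference of -0.04. Taking each nlp7-1 sample against each wild-type sample, the median over the 22 was 0.17 and 0.13 against wild type replicate 1, and 0.25 and 0.27 against wild type replicate 2. All 4 differences were above 0, and those with wild type replicate 2 gave the larger values. The median over the 11 single-gene probe sets, 0.20, became 0.15 when wild type replicate 1 was left out and 0.16 when replicate 2 was. Over the 11 shared ones the median of 0.25 became 0.26 and 0.17 in the same order.

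Markers of other root cells and of shoots also varied between samples of one genotype. The summed signal of the root hair genes EXPA7 and EXPA18, 2 of 8 listed, was 1009 and 677 in wild type against 1166 and 915 in nlp7-1. The root cap genes RCPG and PASPA3, 2 of 5 listed, summed to 179 and 114 in wild type against 201 and 211 in nlp7-1. The shoot genes LHCB4.1, LHCB4.2 and RCA, 3 of 5 listed, summed to 813 and 1009 in wild type against 664 and 793 in nlp7-1. Wild type replicate 2 thus had the lowest root hair and root cap sums and the highest shoot sum, and nlp7-1 replicate 1 had the lowest shoot sum. RCA on its own was nearly flat, at 371 and 379 in wild type against 361 and 381 in nlp7-1. The log2 change of the root cap genes was 0.94 for RCPG and 0.16 for PASPA3, whose genotypes overlapped. For the meristem, JKD, BBM and AGL42, 3 of 11 listed, summed to 212 and 227 in wild type against 212 and 182 in nlp7-1. In 2 of the 3, JKD and AGL42, both nlp7-1 samples lay below both wild-type samples, as in 20.0% of all probe sets. Their log2 changes were -0.27 and -0.13. BBM, below the filter level, overlapped between genotypes (log2 change 0.02). The meristem sum had its lowest value in nlp7-1 replicate 2. No marker was at 0. Of the 9 that were tested, 0 passed in limma, with 2 (RCPG and LHCB4.1) at an unadjusted p under 0.05. These counts stand beside 2.27% and 13.2% of all kept probe sets. Of the endodermis and xylem lists 0 of 12 genes had a named probe set. The part of cell composition in the histone differences was not tested.

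**Figure D5:**
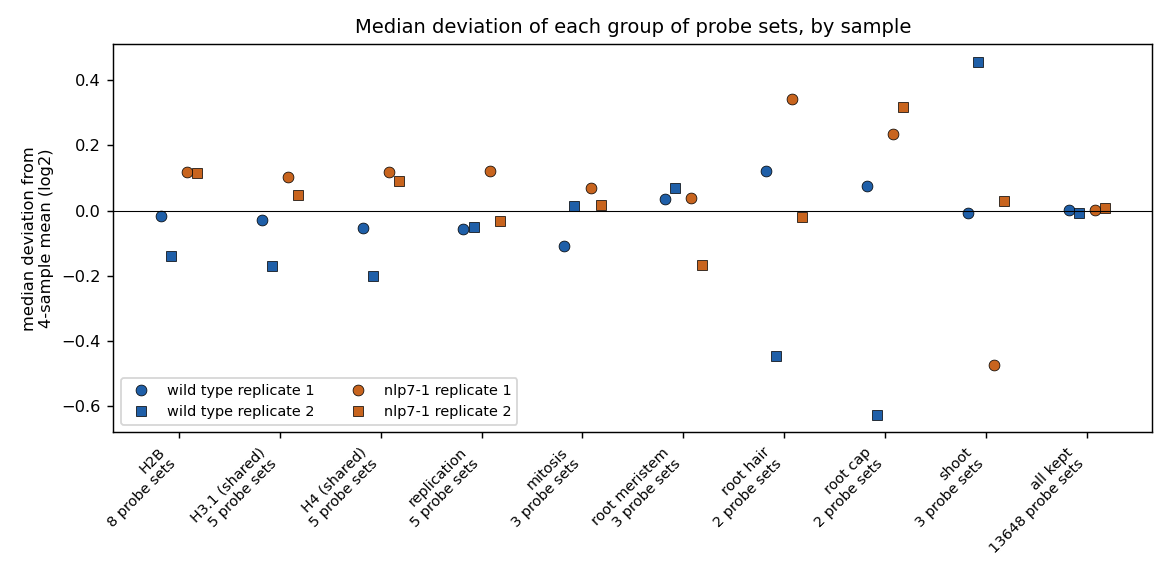
Median deviation of each group of probe sets from its own mean over the 4 samples (log2), 1 point per sample. In H2B, H3.1 and H4 both nlp7-1 samples lie above both wild-type samples, with wild type replicate 2 lowest. That sample is also lowest for root hair and root cap markers, by more, while for shoot markers it is highest and nlp7-1 replicate 1 is lowest.

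Other genes of DNA replication were measured in only 5 of 37 cases, and none passed. MCM7 (AT4G02060), a subunit of the replicative helicase, had signals of 199 and 178 in wild type against 256 and 265 in nlp7-1. The genotypes did not overlap, with a log2 change of 0.47 ± 0.13 (SE), or 1.38-fold (limma adjusted p = 0.171). The primase subunit POLA4, the polymerase alpha subunit POLA1 and the flap endonuclease FEN1 had log2 changes of 0.13, 0.03 and 0.04, and the GINS subunit PSF2 had -0.24. Over the 5 the median log2 change was 0.04, and limma called 0 of them, or 1 (MCM7) at an unadjusted p under 0.05, beside 2.27% and 13.2% of all kept probe sets. MCM7 thus had a change of the size of that of HTB1. Of the other 4, POLA4, POLA1 and FEN1 lay slightly above 0 and PSF2 below it. In 2 of the 5, MCM7 and POLA4, both nlp7-1 samples lay above both wild-type samples, against 23.2% of kept probe sets.

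Of the mitotic genes, 3 of 28 were measured, all Aurora kinases, which act in chromosome segregation and cytokinesis. AUR2 had signals of 132 and 142 in wild type against 168 and 166 in nlp7-1, a log2 change of 0.29 ± 0.13 (SE, limma adjusted p = 0.418). AUR1 and AUR3 had 0.09 and -0.03. In limma 0 of the 3 passed, also at an unadjusted p under 0.05, beside 2.27% and 13.2% of all kept probe sets. With 3 probe sets, 0 called does not show that mitotic genes were alike. Of the histone chaperones, which carry histones to chromatin, 2 of 14 were measured. ASF1B, a chaperone of H3 and H4, had 303 and 345 in wild type against 391 and 440 in nlp7-1, a log2 change of 0.36 ± 0.13 (SE, limma adjusted p = 0.321). Its paralog ASF1A had 0.07 ± 0.12. None of the 14 genes listed for control of the G1 to S transition had a named probe set.

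Among 11 further histone loci outside the member list, 5 had a named probe set and 2 of those were kept, both for H1. H1.3 (AT2G18050), a linker histone known to respond to drought, had 163 and 209 in wild type against 228 and 372 in nlp7-1. Its log2 change was 0.66 ± 0.25 (SE, limma adjusted p = 0.340), with a wide gap between the mutant replicates. H1.2 (AT2G30620), another linker histone gene, had 1543 and 1528 against 1657 and 1728, a log2 change of 0.14 ± 0.09 (SE, limma adjusted p = 0.598). HTR6, HTR10 and HTR15 lay below the filter level.

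By the gene order of the RefSeq table, members of different classes often lie near each other. Among 9 stretches in which successive member loci on a chromosome had at most 10 protein-coding genes between them, 5 joined an H2B gene to an H4 gene. Between HTB1 and the H4 locus AT1G07820 lie 2 protein-coding genes, and between AT2G28720 and HIS4 lies 1. The H2A.W gene AT5G02560 is the direct neighbour of the H2B gene AT5G02570, and AT5G10390 that of AT5G10400, both H3.1. Since the H4 loci share their probe sets, whether neighbours changed together could not be read from these arrays.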

How the data were processed

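The authors deposited intensities, 1 linear MAS5 signal for each probe set, with no version named per the submitters' processing notes. Detection calls and scanner images were not used. Names came from GEO's platform annotation and, by gene identifier, from RefSeq (TAIR10.1), which served only for names and gene order. Of 22746 probe sets without controls, 13513 name 1 gene. No sequence table was used.

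Log2 values were used without a pseudocount. Probe sets whose mean log2 reached the 40th percentile (a signal of 59.4) were kept, 13648 in all. The genotypes were fitted in limma 3.58.1 under R 4.3.3 with lmFit and a trended eBayes. Two-sided p-values were adjusted by Benjamini-Hochberg over all kept probe sets, at a threshold of 0.05. SE and 95% intervals are those of the moderated fit, which was tested on simulated data. Those data were drawn from the fit's own variance prior with independent errors. They cannot show whether the intervals hold for these samples. Lists are described by counts and medians. Every member with a single-gene probe set was named, as were list members past the test and up to 4 per list with the smallest p. The members and the 11 lists of 145 genes were chosen with earlier results of these data known. Alternatives were other filters, pseudocounts, normalizations and variance priors, a replicate block and each sample left out. Promoter motifs were planned and not run.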

Additional observations from a re-analysis of the deposited data

How the results depend on the processing

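With 2 arrays per genotype, differences of about 1.2-fold lie within the intervals of most histone probe sets. All alternatives were planned, except that results for shared probe sets were added after seeing the data. The same replicate numbers (1 and 2) occur in both genotypes, and deviations of same-numbered samples correlated at 0.436 across kept probe sets, but no label says that a number marks a shared batch. With the replicate number as a block (replicate block), 1290 probe sets differed instead of 310, with 1 single-gene histone probe set (HTB1, limma adjusted p = 0.0103), 1 shared one (257714_at, 0.0382) and 1 replication gene (MCM7, 0.0323). H1.3 (0.00665) and the markers RCPG (0.0125) and LHCB4.1 (0.00324) also passed with the block. The count over all probe sets was 116 without a trend and 0 with an unmoderated test, which gave 1371 at an unadjusted p under 0.05, 0 of them single-gene histone probe sets and 2 shared ones. Leaving out a sample gave 14 to 770, with 0 to 1 single-gene histone probe sets. The median log2 change of the 11 single-gene histone probe sets, 0.20, was 0.10 with a pseudocount of 100 and 0.21 with quantile normalization, and lay between 0.15 and 0.24 in fits that left out a sample. Relative to all probe sets these values were 0.10, 0.22 and 0.15 to 0.23. The replication list's median lay between 0.018 and 0.136 in such fits. With a sample left out, 5 probe sets turned sign: AT2G28720 (-0.24 to 0.10), HTB4 (-0.225 to 0.101), AT1G75600 (-0.207 to 0.145), 264262_at (-0.07 to 0.20) and 261408_s_at (-0.14 to 0.24). The causes of these shifts were not tested. Of 264 values of single histone probe sets tested under an alternative and in the main comparison, 254 kept their direction and their side of the threshold, and 44 further values were not tested in one or both. This count is no measure of stability. Alternatives that altered only the filter, the variance estimate or the block left the log2 change as it was, so direction could not turn in them. No histone probe set passed in the main comparison, so the same side meant not passing.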
